A study of Mus musculus with 6 samples.

Results

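The genes described here are 40 genes of the cell cycle and of DNA replication, picked by gene symbol out of the 29595 genes of the table, and split into 14 genes of G1, 11 genes of S phase and 15 genes of G2 and mitosis. RNA was sequenced from TKPTS cells, a mouse kidney proximal tubule line. In the Hnf3a group (3 libraries, genotype label HNF3alpha overexpression) the cells had received pcDNA3.1 with a Flag-tagged insert for HNF3α, the forkhead factor encoded by Foxa1, and in the pcDNA group (3 libraries, genotype label WT) the Flag plasmid without an insert. Both groups were harvested 24 h after transfection. They shared the line, the vector backbone and the transfection, and the plasmid level therefore rests on transient uptake by 1 line in culture. The libraries held between 60473818 and 71154667 estimated counts, and 17824 genes, all 40 cell cycle genes among them, passed the filter on low counts. Nothing in the sources used here says that the 3 libraries of a group came from separate cultures, so p-values may measure only technical spread.

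A cell enters the cycle when D-type cyclins bind the kinases Cdk4 and Cdk6. The complexes phosphorylate the retinoblastoma protein, E2F factors are set free, and cyclin E with Cdk2 drives the entry into S phase. The MCM helicase then opens the DNA at licensed origins, and cyclin A, cyclin B and Cdk1 carry the cell through G2 into mitosis, where Aurora and Polo kinases and the spindle checkpoint act. Healthy proximal tubule cells rarely divide, while cells re-enter the cycle after injury. TKPTS was derived from a mouse carrying the SV40 large T antigen, a viral protein that binds the retinoblastoma protein and p53.

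Cell cycle promoters carry short motifs that differ by phase, and 5 promoter windows are shown to make this visible. Mcm6 stands for the S genes with E2F letters, Kif11 and Cdc20 for the mitotic genes with the largest fold changes, Top2a for the most abundant one and Ccnb2 for a run of CCAAT boxes. The windows were chosen after the values had been seen. Each is the 200 bases before the RefSeq transcription start (GRCm38.p6), read 5′ to 3′ on the strand of the gene. Capitals mark the letters CCAAT (the box bound by NF-Y), TTTGAA (the cell cycle homology region, CHR, of late cell cycle genes), TTTCGCGC or TTTGGCGC (E2F) and TGTTTAC or TGTTTGC (forkhead), on either strand, so that CCAAT on the other strand reads ATTGG. Matches that overlap run together, as with the pair of E2F matches on opposite strands in Mcm6. The windows lie at chr1:128359706-128359905 (minus strand), chr19:37376182-37376381 (plus strand), chr4:118437344-118437543 (minus strand), chr11:99024190-99024389 (minus strand) and chr9:70421555-70421754 (minus strand).
Mcm6: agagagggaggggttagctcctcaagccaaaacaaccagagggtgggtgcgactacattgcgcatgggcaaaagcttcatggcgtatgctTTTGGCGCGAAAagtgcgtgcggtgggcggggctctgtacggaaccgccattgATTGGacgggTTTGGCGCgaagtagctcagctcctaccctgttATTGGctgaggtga
Kif11: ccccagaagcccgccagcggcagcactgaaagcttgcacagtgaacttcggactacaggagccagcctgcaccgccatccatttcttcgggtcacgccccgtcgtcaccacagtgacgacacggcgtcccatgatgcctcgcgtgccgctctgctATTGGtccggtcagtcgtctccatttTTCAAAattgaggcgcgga
Cdc20: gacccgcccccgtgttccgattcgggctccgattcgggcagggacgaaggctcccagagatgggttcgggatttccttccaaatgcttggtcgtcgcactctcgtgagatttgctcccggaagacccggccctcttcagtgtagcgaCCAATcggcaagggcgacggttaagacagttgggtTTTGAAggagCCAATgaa
Top2a: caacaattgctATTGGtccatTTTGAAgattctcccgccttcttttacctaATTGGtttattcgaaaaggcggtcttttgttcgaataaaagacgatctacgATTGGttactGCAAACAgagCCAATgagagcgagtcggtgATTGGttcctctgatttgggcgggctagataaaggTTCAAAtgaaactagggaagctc
Ccnb2: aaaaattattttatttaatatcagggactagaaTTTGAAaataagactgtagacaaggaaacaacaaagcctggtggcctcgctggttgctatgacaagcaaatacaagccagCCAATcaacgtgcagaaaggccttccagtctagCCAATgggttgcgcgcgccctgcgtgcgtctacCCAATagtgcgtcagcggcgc

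The Mcm6 window held 3 E2F matches, the first of which began 110 bases before the start, and no CHR. Kif11, Cdc20 and Top2a each had a CHR match within the last 30 bases, at 19 to 14, 18 to 13 and 23 to 18 bases before the start, and each had CCAAT further upstream. In Ccnb2, the gene of a B-type cyclin, 3 CCAAT boxes began 87, 54 and 21 bases before the start. Of the 40 genes, 33 had a window in the table, in 37 windows in all. CCAAT occurred in 92.3% of the 13 mitotic windows, 81.8% of the 11 S windows and 38.5% of the 13 G1 windows, beside 29.3% of all 32851 windows. TTTGAA occurred in 46.2%, 9.09% and 15.4% of them, beside 12.5% of all windows. An E2F match occurred in 1, 2 and 0 of them (7.69%, 18.2% and 0%), beside 0.551% of all windows. Only the exact E2F letters given above were searched, so windows without a match may hold other forms of the site. The forkhead letters were found in 1 of the 37 windows, that of Top2a, and in 5.77% of all windows. Such matches describe the letters of these windows, and nothing about binding was measured here.

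The labels were checked first. Foxa1 (ENSMUSG00000035451, minus strand of chromosome 12) was at 334.2, 295.5 and 284.2 FPKM (fragments per kilobase of transcript, scaled to library size, a level per length) with the Hnf3a plasmid, against 9.49, 9.54 and 9.96 FPKM with the empty plasmid. The groups lay far apart, with a log2 fold change of 4.97 ± 0.067 (SE; edgeR quasi-likelihood test, Benjamini-Hochberg adjusted p = 5.99e-10). The kidney epithelial genes Pax8, Krt8, Krt18 and Cdh1 were between 27.5 and 250.3 FPKM in every library. Of these, Krt18 was higher with the Hnf3a plasmid (log2 fold change 0.20, edgeR adjusted p = 0.00148). For Pax8, Krt8 and Cdh1 the edgeR adjusted p was 0.936, 0.424 and 0.375. The defining proximal tubule genes Lrp2, Cubn, Slc5a2 and Hnf4a were all under 0.07 FPKM, so these markers of the labelled cell type were near 0. Fibroblast genes stood out in Hnf3a replicates 2 and 3, where the 8 genes summed to 7.68 and 9.47 FPKM, against 0.149 FPKM in Hnf3a replicate 1 and 0.0584 to 0.116 FPKM in the pcDNA libraries. The 8 macrophage genes summed to 17.2 and 19.1 FPKM in those replicates and to 12.4 to 14.2 FPKM in the other libraries, mostly as Cd68. For this reason, results are also given with Hnf3a replicate 1 alone against the pcDNA libraries.

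At 24 h, the cell cycle genes were nearly level between the groups. Of the 40, 2 passed an adjusted p of 0.05 (1 higher, 1 lower), beside 3.17% of all genes tested (1.04% higher, 2.13% lower), a share close to the background. Both encode D-type cyclins: the difference (Hnf3a against pcDNA) was -7.26% for Ccnd1 and 46.5% for Ccnd2, a gene of very low level. The remaining D-type cyclin gene, Ccnd3, was not called. In size, the difference of Ccnd1 was no larger than that of E2f2 (7.44%), which was not called, and both calls depended on the setting, as given below. DESeq2 called Ccnd1 and Ccnd2 as well, beside 4.91% of the genes for which it gave an adjusted p, and limma called 0, beside 1.32%. For the other 38 genes the log2 fold change lay between -0.084 and 0.10, and every 95% interval lay between -0.18 and 0.27, that is, from -11.9% to 20.4%. At an unadjusted p under 0.05 there were 7 genes (5 higher, 2 lower), beside 13.5% of all genes (6.55% higher, 6.98% lower). On the CPM scale (counts scaled to library size, with TMM factors) the 2 groups did not overlap for 9 genes (7 higher, 2 lower), beside 18.9% of all genes (9.12% higher, 9.81% lower). In bulk RNA, a change in the share of cells in a phase and a change in RNA per cell cannot be told apart.

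**Figure D1:**
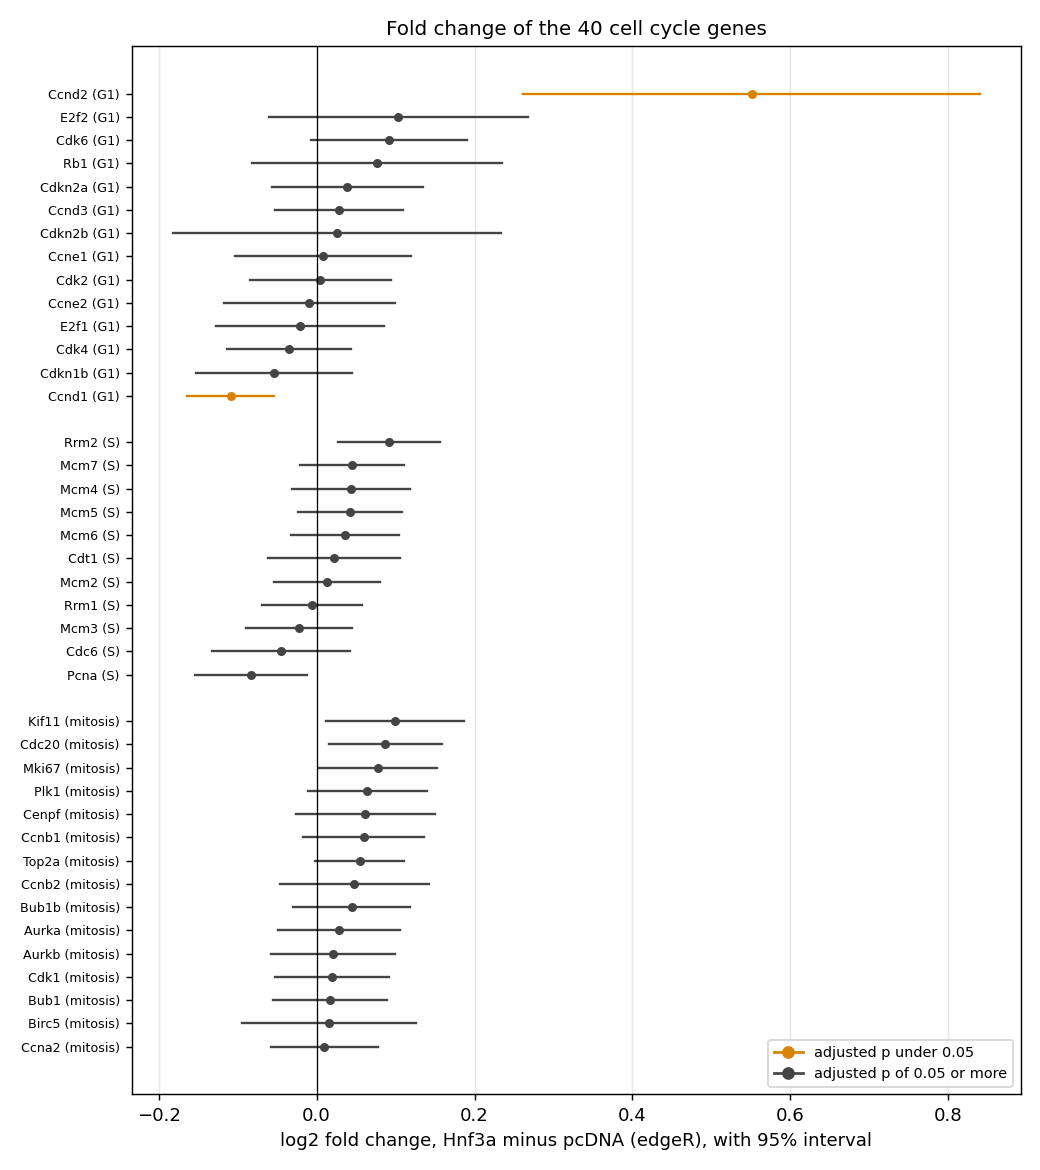
Log2 fold change of each of the 40 cell cycle genes (Hnf3a minus pcDNA, edgeR, 3 libraries a group; x axis) with its 95% interval, by phase on the y axis and sorted within the phase. Ccnd2 at 0.55 and Ccnd1 at -0.11 (orange) passed the threshold, while the other 38 lie between -0.084 and 0.10 and all 15 mitotic genes lie above 0.

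Cyclin D1 was the dominant D-type cyclin. Ccnd1 (ENSMUSG00000070348, minus strand of chromosome 7, 144929931 to 144939925 in GRCm38) was at 137.1, 137.3 and 136.1 FPKM with the Hnf3a plasmid, against 146.3, 149.1 and 144.6 FPKM with the empty plasmid. Every Hnf3a library was below every pcDNA library, and the Hnf3a libraries were the closer together. The log2 fold change was -0.11 ± 0.026 (SE), with a 95% interval from -0.16 to -0.053 and an edgeR adjusted p of 0.0355. The call held without Hnf3a replicate 1 (adjusted p = 0.0274) and was lost on leaving out any of the others, where the adjusted p was 0.0596 for Hnf3a replicate 3, 0.0815 for pcDNA replicate 3, 0.152 for pcDNA replicate 1, 0.175 for Hnf3a replicate 2 and 0.222 for pcDNA replicate 2. With Hnf3a replicate 1 alone the log2 fold change was -0.097 and the adjusted p 0.152. Over 17 alternatives the log2 fold change stayed between -0.12 and -0.096, with adjusted p from 0.00196 to 0.222, under 0.05 in 5. LTO1 is annotated on the opposite strand across part of Ccnd1, and the sources used here do not state whether counting used strand.

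Cyclin D2 was at the other end of the scale. Ccnd2 (ENSMUSG00000000184, minus strand of chromosome 6, 127125162 to 127152193) was at 0.507, 0.501 and 0.429 FPKM with the Hnf3a plasmid, against 0.305, 0.328 and 0.336 FPKM with the empty plasmid. The groups did not overlap, and the highest value was that of Hnf3a replicate 1, the library of that group with a fibroblast sum of 0.149 FPKM. The values rested on 349, 375 and 298 estimated counts against 196, 229 and 233. At 4 counts a fragment, the most that 1 appeared to be worth, fewer than 100 fragments stood behind each. Where a fragment was worth less, there were more. The log2 fold change was 0.55 ± 0.13 (SE), with a 95% interval from 0.26 to 0.84 and an edgeR adjusted p of 0.0414. The call held without Hnf3a replicate 3 (0.0419) and was lost on leaving out any of the others, where the adjusted p was 0.105 for pcDNA replicate 3, 0.111 for Hnf3a replicate 1, 0.137 for pcDNA replicate 2, 0.171 for pcDNA replicate 1 and 0.175 for Hnf3a replicate 2. With Hnf3a replicate 1 alone the log2 fold change was 0.64 (adjusted p = 0.136). Over 16 alternatives the adjusted p ran from 0.0164 to 0.268, under 0.05 in 6, and the log2 fold change was positive in each, although adding 1 to each FPKM brought it down to 0.16. Gm43126 and 9330179D12Rik are annotated across parts of the gene on the opposite strand.

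Ccnd3, the remaining D-type cyclin, was at 10.8, 10.5 and 10.6 FPKM with the Hnf3a plasmid, against 10.2, 10.1 and 10.8 FPKM with the empty plasmid, with overlapping groups and a log2 fold change of 0.029 (95% interval -0.053 to 0.11). With the Hnf3a plasmid the D cyclins summed to 147.9 ± 0.774 FPKM (SD, n = 3), and with the empty plasmid to 157.4 ± 1.89 FPKM (SD, n = 3). Ccnd1 supplied 92.4% to 93.5% of the sum in every library. Ccnd2 supplied 0.324% and 0.205% of it, as the means of the groups, so the gene with the larger fold carried almost none of the cyclin D message.

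**Figure D2:**
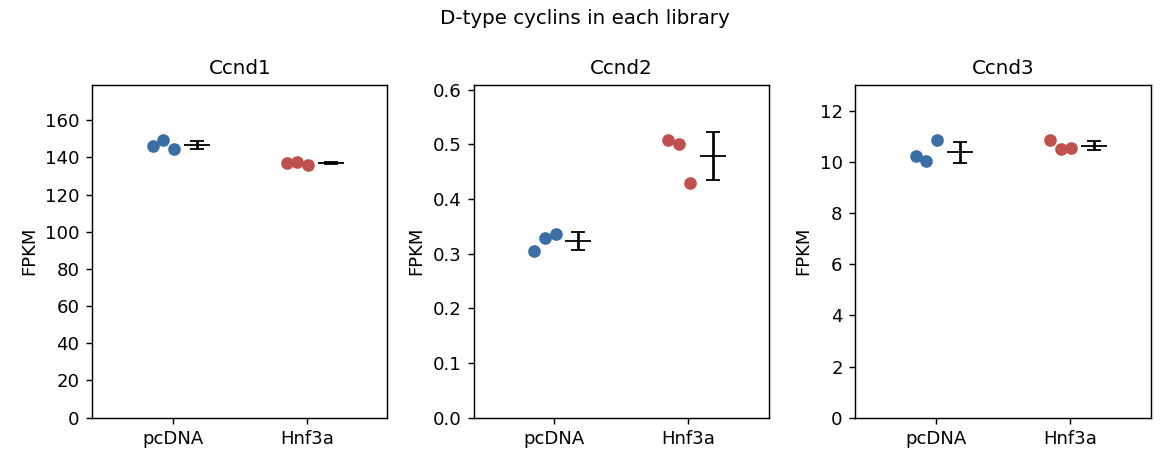
FPKM of Ccnd1, Ccnd2 and Ccnd3 (y axes, each from 0) in the 3 pcDNA and 3 Hnf3a libraries (points), with the mean and SD of each group (bars). The groups do not overlap for Ccnd1 (136.1 to 137.3 against 144.6 to 149.1 FPKM) or Ccnd2 (0.429 to 0.507 against 0.305 to 0.336 FPKM) and overlap for Ccnd3.

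The kinases that the D cyclins activate differed in level but not past the threshold between the groups. Cdk4 was at 73.2, 76.4 and 80.7 FPKM with the Hnf3a plasmid and 79.7, 77.6 and 77.3 FPKM with the empty plasmid, and the Hnf3a libraries spanned the pcDNA libraries (log2 fold change -0.035, 95% interval -0.11 to 0.044). Cdk6 was at 7.35 to 8.64 FPKM, with a log2 fold change of 0.092 (95% interval -0.0071 to 0.19, adjusted p = 0.421). The ratio of Cdk4 to Cdk6 was 9.44, 9.27 and 9.34 with the Hnf3a plasmid, against 9.86, 10.3 and 10.5 with the empty plasmid, a difference picked out after the values were seen and given without a test.

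The INK4 inhibitors, which block Cdk4 and Cdk6, were expressed beside them. Cdkn2a was at 55.9, 62.0 and 62.5 FPKM with the Hnf3a plasmid, against 58.9, 57.1 and 58.7 FPKM with the empty plasmid, and the groups overlapped. The gene encodes both p16INK4a and p19ARF from alternative first exons, and a value per gene does not tell them apart. Its neighbour Cdkn2b (p15INK4b), 11645 bases away on chromosome 4, was at 6.45, 8.01 and 7.91 FPKM against 7.27, 7.17 and 7.41 FPKM. Both genes were lowest in Hnf3a replicate 1, and the ratio of Cdkn2a to Cdkn2b was 7.75 to 8.67 over the 6 libraries. The log2 fold changes were 0.039 for Cdkn2a (95% interval -0.057 to 0.13) and 0.025 for Cdkn2b (95% interval -0.18 to 0.23), and with Hnf3a replicate 1 alone they turned to -0.058 and -0.17. Cdkn1b (p27), an inhibitor of cyclin E with Cdk2, was at 9.30 to 10.1 FPKM and had a log2 fold change of -0.054 (95% interval -0.15 to 0.045).

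Both cyclin E genes were at one level. Ccne1 was at 14.3, 15.6 and 14.4 FPKM against 14.9, 13.9 and 15.0 FPKM, and Ccne2 at 15.1, 14.8 and 14.9 FPKM against 16.1, 14.6 and 14.1 FPKM. Neither group lay above the other, and the ratio of Ccne1 to Ccne2 ran from 0.925 to 1.06. Their kinase Cdk2 was at 12.2 to 13.4 FPKM (log2 fold change 0.0049, 95% interval -0.085 to 0.094). E2f1, which activates S phase genes, was at 14.2 to 15.6 FPKM, so that E2f1 and both cyclin E genes did not differ in level beyond their spread. E2f2 at 2.83 to 3.50 FPKM and Rb1, the retinoblastoma gene, at 3.43 to 4.23 FPKM were the lowest of the 14 G1 genes after Ccnd2. Their intervals were the widest of the phase but for Ccnd2 and Cdkn2b, from -0.061 to 0.27 for E2f2 and from -0.082 to 0.24 for Rb1. The median log2 fold change of the 14 G1 genes was 0.017, with 9 above 0 and 5 below, beside a median of 8e-04 over all genes tested, 50.2% of which were above 0. With Hnf3a replicate 1 alone the G1 median was -0.035, and without Hnf3a replicate 2 it was -0.0048.

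**Figure D3:**
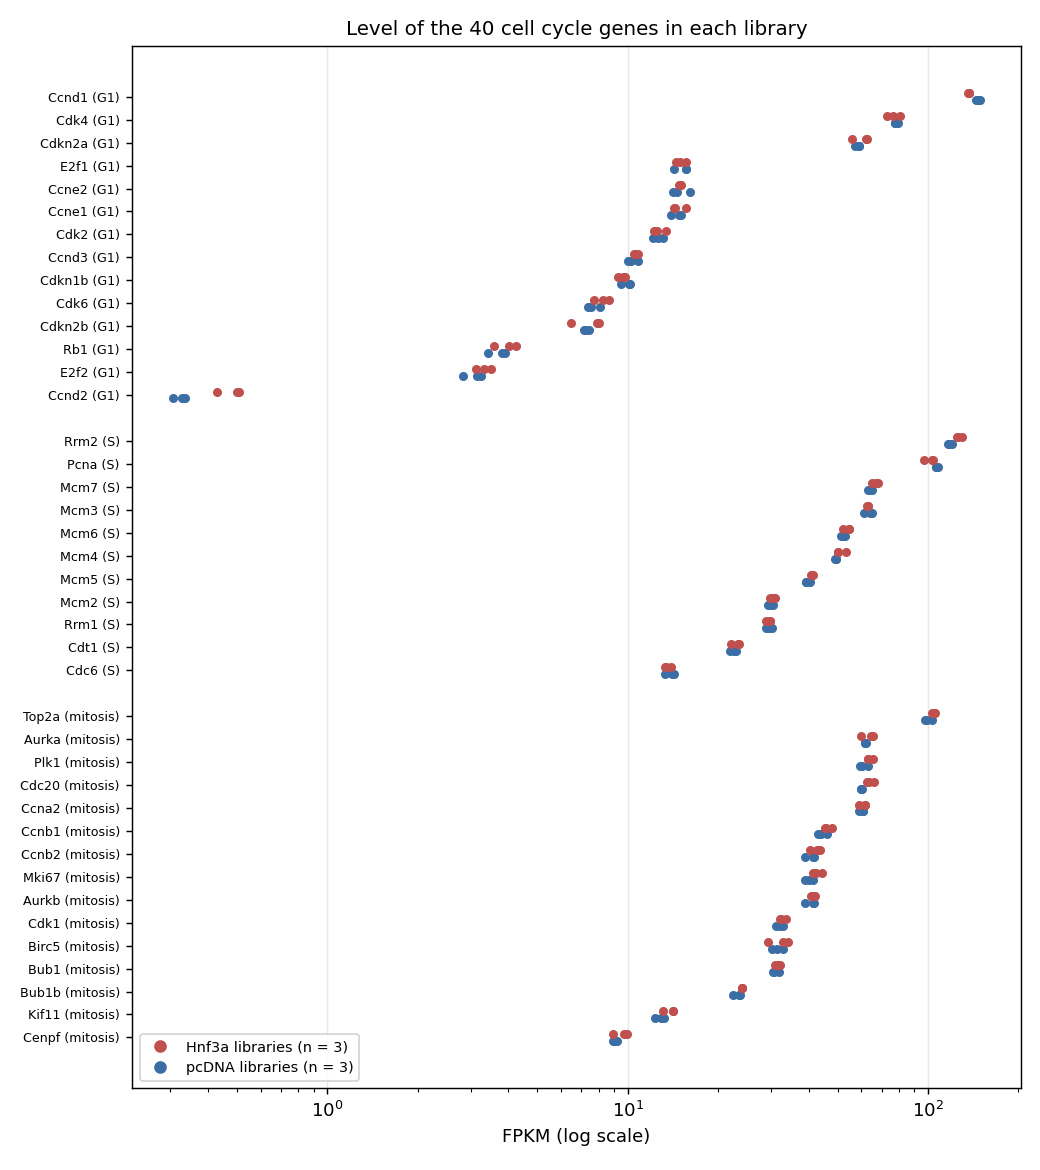
FPKM on a log scale (x axis) of each of the 40 cell cycle genes in each of the 6 libraries (red: Hnf3a, blue: pcDNA; 3 points a group), by phase on the y axis and sorted by mean level. The levels run from 0.401 FPKM (Ccnd2) to 141.8 FPKM (Ccnd1) as means over 6 libraries, and for most genes the red and blue points lie within the same narrow range.

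The S phase genes were abundant, with a median level of 50.2 FPKM, above 94.7% of all genes tested, and 0 of 11 passed the threshold. Rrm2, the small subunit of ribonucleotide reductase that makes deoxynucleotides, was the most abundant of them, at 129.5, 125.7 and 124.6 FPKM with the Hnf3a plasmid, against 120.2, 117.6 and 116.6 FPKM with the empty plasmid. The groups did not overlap, and the log2 fold change of 0.091 (95% interval 0.027 to 0.16) had an edgeR p of 0.00928, or 0.156 after adjustment. Pcna, the sliding clamp of the DNA polymerases, went the other way, at 96.8, 103.4 and 104.1 FPKM against 106.2, 107.9 and 106.5 FPKM. Every Hnf3a library was below the pcDNA libraries and Hnf3a replicate 1 was farthest below (log2 fold change -0.084, 95% interval -0.15 to -0.013, adjusted p = 0.264). Neither gene passed the threshold in any of 17 alternatives, where the lowest adjusted p was 0.0563 for Rrm2 and 0.0865 for Pcna. Rrm1, the large subunit, was at 28.8 to 30.1 FPKM with overlapping groups. The ratio of Rrm2 to Rrm1 was 4.17 to 4.47 in the Hnf3a libraries and 3.91 to 4.08 in the pcDNA libraries. This difference, too, was picked out after the values were seen and is given without a test.

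The 6 MCM genes encode the hetero-hexameric replicative helicase. Mcm7, the third most abundant S gene, was at 66.9, 65.1 and 68.2 FPKM with the Hnf3a plasmid, against 63.1, 64.8 and 65.0 FPKM with the empty plasmid, with a log2 fold change of 0.045 (95% interval -0.021 to 0.11). Although the 6 subunits form 1 ring, their messages were not at one level. They ran from 30.2 FPKM for Mcm2 to 65.5 FPKM for Mcm7 as means of the 6 libraries, and Mcm7 was 2.11 to 2.24 times Mcm2 in every library. Mcm7 lies over a cluster of microRNAs on its own strand (Mir25, Mir93 and Mir106b) and overlaps Cops6 and Ap4m1 on the other strand, so its reads may be shared. With the Hnf3a plasmid the MCM genes summed to 306.0 ± 3.26 FPKM (SD, n = 3), and with the empty plasmid to 298.9 ± 3.90 FPKM (SD, n = 3). Mcm4 and Mcm5 were higher in every Hnf3a library, with log2 fold changes of 0.043 and 0.042 and adjusted p of 0.679 and 0.633, and Mcm2, Mcm3 and Mcm6 overlapped between the groups. The licensing factors Cdc6 and Cdt1, which load the helicase onto origins, were at 13.3 to 14.3 and 21.9 to 23.4 FPKM, with log2 fold changes of -0.045 (95% interval -0.13 to 0.042) and 0.022 (95% interval -0.062 to 0.11).

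Over the S phase genes the median log2 fold change was 0.022, with 7 above 0 and 4 below, beside 50.2% of all genes above 0. At an unadjusted p under 0.05 in edgeR there were 2, Rrm2 higher and Pcna lower, beside 13.5% of all genes (6.55% higher, 6.98% lower). DESeq2 and limma called 0 of the 11, beside 4.91% and 1.32%. No interval of an S gene went below -0.15 or above 0.16 (-10.2% to 11.4%). The summed level was 600.5, 596.7 and 602.9 FPKM with the Hnf3a plasmid, against 587.1, 592.4 and 589.7 FPKM with the empty plasmid, a sum to which Rrm2, Pcna and the MCM genes contribute most. These sums, like those of the MCM genes, are FPKM without TMM factors, which places the Hnf3a libraries slightly higher than the CPM scale does.

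The mitotic genes had a median level of 41.4 FPKM, above 93.2% of all genes tested. Top2a, the topoisomerase that untangles sister chromatids, was the most abundant, at 105.1, 104.7 and 103.4 FPKM with the Hnf3a plasmid, against 98.0, 102.7 and 99.0 FPKM with the empty plasmid. The groups did not overlap, although Hnf3a replicate 3 and pcDNA replicate 2 were within 1 FPKM of each other (log2 fold change 0.055, 95% interval -0.0019 to 0.11, adjusted p = 0.395). Aurka, a kinase of the spindle poles, was at 60.0, 64.6 and 65.4 FPKM against 61.7, 62.0 and 61.5 FPKM. Plk1, the Polo kinase, was at 63.2, 63.2 and 65.6 FPKM against 59.2, 60.2 and 63.1 FPKM. For Aurka the lowest and the highest library both belonged to the Hnf3a group. For Plk1 the Hnf3a libraries were just above the highest pcDNA library or higher in FPKM, but the groups overlapped on the CPM scale.

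Each of the 15 mitotic genes had a log2 fold change above 0, from 0.0099 (Ccna2) to 0.099 (Kif11), and 0 passed the threshold. Over all genes tested, 50.2% were above 0. The median was 0.048. At an unadjusted p under 0.05 in edgeR there were 3, all higher, beside 13.5% of all genes (6.55% higher, 6.98% lower). DESeq2 and limma called 0 of the 15, beside 4.91% and 1.32%. Kif11, a motor that pushes the spindle poles apart, was at 14.1, 14.1 and 13.1 FPKM against 12.9, 13.2 and 12.4 FPKM (95% interval 0.012 to 0.19, adjusted p = 0.286). Cdc20, the activator of the anaphase-promoting complex, was at 63.6, 66.2 and 62.8 FPKM against 60.3, 59.9 and 60.0 FPKM (log2 fold change 0.087, 95% interval 0.015 to 0.16, adjusted p = 0.246). The groups did not overlap for Cdc20 and overlapped narrowly for Kif11. Mki67, the proliferation antigen Ki-67, was at 44.5, 42.2 and 41.4 FPKM against 39.0, 41.4 and 40.3 FPKM (log2 fold change 0.078, 95% interval 0.003 to 0.15, adjusted p = 0.342).

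Cyclins of the later cycle were close to level. Ccna2 was at 58.7 to 61.8 FPKM, Ccnb1 at 42.9 to 48.0 FPKM and Ccnb2 at 38.9 to 43.7 FPKM. Their partner Cdk1 was at 31.3 to 33.6 FPKM, with a log2 fold change of 0.019 (95% interval -0.053 to 0.091). The checkpoint kinase genes Bub1 and Bub1b were at 30.5 to 32.2 and 22.4 to 24.1 FPKM, Aurkb of the chromosomal passenger complex at 38.8 to 42.1 FPKM, and its partner Birc5 (survivin) at 29.4 to 34.2 FPKM. Of these, Bub1b was higher in every Hnf3a library (log2 fold change 0.044, adjusted p = 0.665), and the groups overlapped for the rest. Cenpf, a kinetochore protein, was the lowest of the phase at 8.92 to 9.94 FPKM. No interval of a mitotic gene went below -0.094 or above 0.19 (-6.30% to 13.8%).

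**Figure D4:**
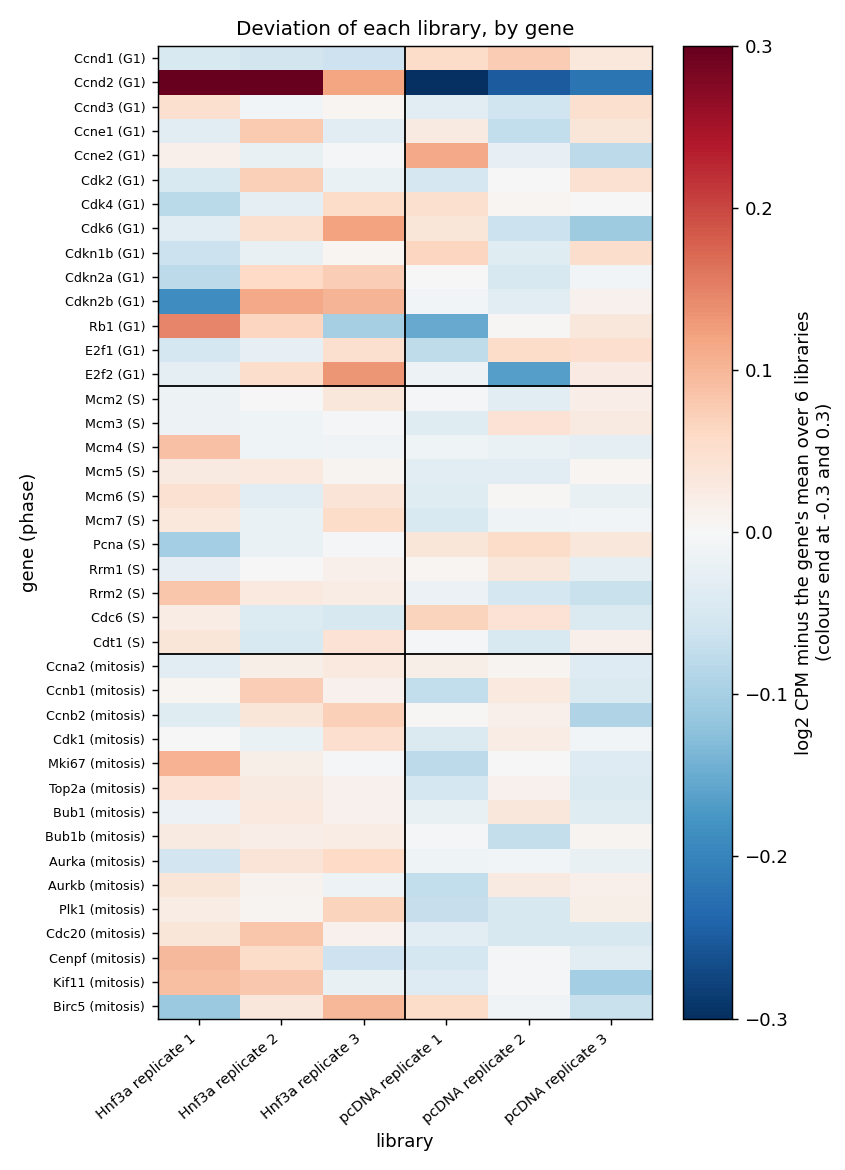
Colour shows log2 CPM of each library minus the mean of that gene over the 6 libraries, with the 40 genes on the y axis by phase and the libraries on the x axis, and colours end at -0.3 and 0.3. Ccnd2 has the strongest colours, and the highest library of the 15 mitotic genes is in the Hnf3a group for all but 1, Bub1.

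By library, the mitotic genes summed to 663.9, 680.1 and 676.2 FPKM with the Hnf3a plasmid, against 642.0, 657.6 and 645.1 FPKM with the empty plasmid. FPKM has no TMM factor, so these sums place the Hnf3a libraries slightly higher than the CPM scale does. The highest of the 6 FPKM values belonged to Hnf3a replicates 1, 2 and 3 for 4, 5 and 6 of the 15 genes and to a pcDNA library for 0. On the CPM scale these counts were 6, 2 and 6, and pcDNA replicate 2 was highest for 1 gene, Bub1. The lowest FPKM belonged to pcDNA replicates 1, 2 and 3 for 7, 2 and 4 genes and to Hnf3a replicate 1 for 2, and the lowest CPM to the same pcDNA libraries for 6, 2 and 4 genes, to Hnf3a replicate 1 for 2 and to Hnf3a replicate 3 for 1, Cenpf. The 15 genes were read in the same 6 libraries and are not independent of each other. Leaving out 1 library at a time, the count above 0 was 12 for Hnf3a replicate 3, 13 for pcDNA replicate 3, 14 for pcDNA replicate 1 and 15 for each of the others. With Hnf3a replicate 1 alone it was 10, while the median stayed at 0.048. Hnf3a replicates 2 and 3, which had the higher mitotic FPKM sums, were also the libraries with fibroblast transcripts, whose part in the result was not tested.

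A wider list of 108 cell cycle genes, none of them among the 40, was read beside them (18 of G1, 42 of S phase and 48 of mitosis). Here 0 passed the threshold in edgeR, beside 3.17% of all genes, and limma called 0, beside 1.32%. DESeq2 called 4, beside 4.91%. At an unadjusted p under 0.05 in edgeR there were 14 (10 higher, 4 lower), beside 13.5% of all genes (6.55% higher, 6.98% lower). Over both directions, the counts of 14 and 4 of 108 were near the shares over all genes. Most of the 14 were higher, while over all genes the directions were nearly even. The 4 called by DESeq2 were Ccnf, an F-box cyclin that limits ribonucleotide reductase, Cdkn1a (p21), a CDK inhibitor and p53 target, Tfdp2, a dimer partner of E2F, and Orc1, a subunit of the origin recognition complex. Cdkn1a was at 33.0, 33.9 and 31.5 FPKM with the Hnf3a plasmid, against 30.0, 28.2 and 30.0 FPKM with the empty plasmid, so every Hnf3a library was higher (log2 fold change 0.15 ± 0.039, SE; edgeR adjusted p = 0.0578). Orc1 was lower in every Hnf3a library, at 10.6, 10.2 and 10.01 FPKM against 11.8, 11.9 and 11.1 FPKM (-0.19 ± 0.050, adjusted p = 0.0648). Ccnf was at 8.88, 8.87 and 9.08 FPKM against 7.94, 8.15 and 8.10 FPKM (0.14 ± 0.036, adjusted p = 0.0518). Tfdp2, at 1.08, 1.03 and 0.983 FPKM against 0.740, 0.862 and 0.865 FPKM, had the largest of these log2 fold changes (0.31 ± 0.084, adjusted p = 0.0638). These genes were singled out after their values had been seen, and none passed the threshold of the main test.

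The phases of the wider list had medians of 0.046 (G1), 0.011 (S) and 0.031 (mitosis). Over all genes, 50.2% were above 0, and 6.55% higher and 6.98% lower were at an unadjusted p under 0.05. Of the 48 mitotic genes, 31 were above 0, 8 were at an unadjusted p under 0.05, all higher, and Ccnf and Hmmr, a spindle assembly factor, had the smallest p (Hmmr 0.10 ± 0.034, adjusted p = 0.181). Of the 42 S genes, 24 were above 0 and the 3 at an unadjusted p under 0.05 were all lower, a count near the share over all genes. They were Orc1, Rfc5, a subunit of the clamp loader (-0.11 ± 0.033, adjusted p = 0.125), and Cdc7, the kinase that fires origins (-0.094 ± 0.040, adjusted p = 0.307). Of the 18 G1 genes, 14 were above 0. Myc, which drives G1 genes, was at 64.0, 57.9 and 58.1 FPKM against 63.2, 63.8 and 64.5 FPKM. Hnf3a replicate 1 lay among the pcDNA libraries and the other two below them (-0.098 ± 0.041, adjusted p = 0.297), and without replicate 1 Myc passed the threshold (-0.15, adjusted p = 0.0186), in 1 of 17 alternatives. The low replicates were again those with fibroblast transcripts, and their part in this was not tested.

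**Figure D5:**
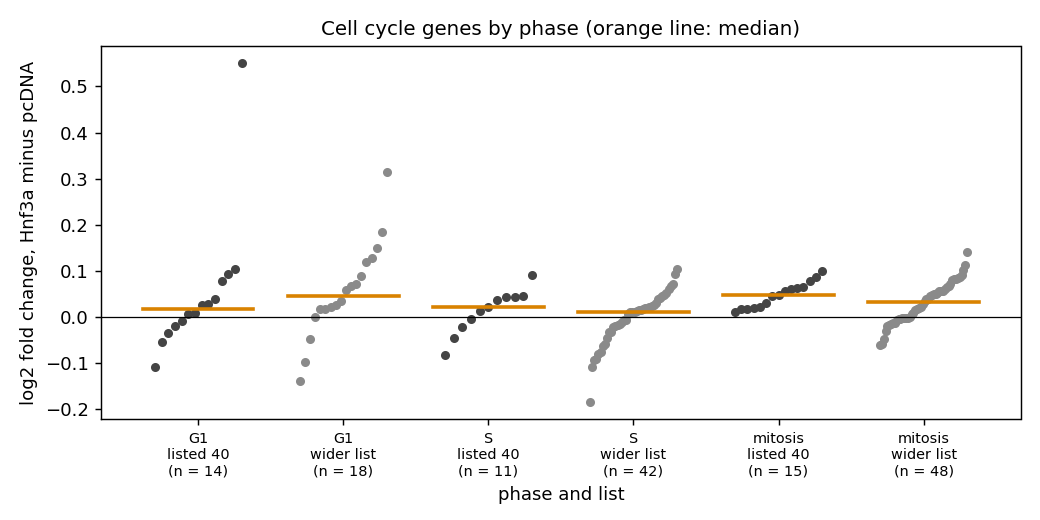
Log2 fold change (Hnf3a minus pcDNA, y axis) of the 40 listed genes and of the 108 genes of the wider list (points, sorted within each column), by phase on the x axis, with the median as an orange line. The medians lie between 0.011 and 0.048, and all 15 listed mitotic genes are above 0.

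On the chromosomes, the 40 genes were spread over 17. The closest pairs were Cdkn2a and Cdkn2b and, on chromosome 11, Cdc6 and Top2a, 69002 bases apart. Of the 40, 22 overlapped no other annotated gene, 16 overlapped a gene on the opposite strand and 6 a gene on their own strand, and the counts of the latter groups may hold reads of the neighbour.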

How the data were processed

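The members and the gene lists were chosen with earlier results of these data known. Per the labels, the libraries were strand-marked, made of polyadenylated RNA with unique molecular identifiers, and read in pairs. The submitters' processing notes name cutadapt 1.9, HISAT2 2.0.4, UMI-tools, StringTie 1.3.4d, DESeq2, edgeR and mm10, without settings. The authors deposited 1 table with a whole-number estimated count and an FPKM value per gene and library. More genes sat at 4 counts than at 3 or 5 in every library, so 1 fragment was taken as up to 4 counts, and 12 counts (0.169 to 0.198 CPM) as the floor, which covers counting error only.

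Estimated counts were tested two-sided with edgeR 4.0.16 in R 4.3.3 (filterByExpr, TMM, glmQLFit with robust = TRUE, no covariate). The Benjamini-Hochberg adjustment ran over 17824 genes. For standard errors, log2 fold changes were divided by the root of F. For 1 gene in 3 against 3 libraries, an exact permutation test cannot go below p = 0.1. The procedure was tested on simulated data. Levels are FPKM. The alternatives were DESeq2 1.42.0, limma 3.58.1 on log2(FPKM + 0.1), with pseudocounts of 1 and 0.01 too, other scalings and filters, a replicate block and leaving out each library. The larger pseudocounts understate the changes of low genes. For Ccnd2 the log2 fold change was 0.45 at 0.1, 0.16 at 1 and 0.55 at 0.01, beside 0.55 in edgeR. Counts divided by 4 was also run, and Hnf3a replicate 1 alone was added after seeing the data. Genes given in every library were those past the threshold, the 3 most abundant of each phase, genes under 0.5 FPKM, the D and E cyclins and the INK4 genes, and others named were chosen after their values were seen. GENCODE vM21 (GRCm38) held 29514 of the genes, 26766 with identical coordinates. Promoters came from RefSeq (GRCm38.p6), and windows of Mcm4, Ccnd1, Ccnd2, Ccne2, Rb1, Aurkb and Ccna2 were not used here.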

Additional observations from a re-analysis of the deposited data

How the results depend on the processing

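With 3 libraries a group, fold changes of a few percent lie within the intervals given, and for genes such as Ccnd2 the low counts may limit the precision. Of the 40 cell cycle genes, 1 was called with total-count scaling, with no filter, and with at least 1 FPKM in at least 3 libraries (a filter that removed Ccnd2), 0 with limma at a pseudocount of 0.1, 1 or 0.01, 0 with Hnf3a replicate 1 alone, and 0 to 1 on leaving out a library. The deviations of same-numbered libraries from their group means, over all genes tested, had correlations of -0.05, -0.0047 and 0.011. With 3 libraries a group, such values cannot tell whether these libraries shared a culture or a batch, which the labels do not state. The fit with the replicate number as a block called 0 of the 40. Called genes of the wider list came to 1 with DESeq2 size factors, 2 with total-count scaling, 2 with at least 1 FPKM, 4 with the DESeq2 Wald test, 3 with counts divided by 4, 2 with Hnf3a replicate 1 alone and 0 to 2 on leaving out a library. Over all genes the 565 calls became 236, 231 and 245 with limma at those pseudocounts, 353 with Hnf3a replicate 1 alone and 263 to 643 on leaving out a library. Fewer samples remained in the last 2 cases, and for the remaining ones the cause was not tested. With Hnf3a replicate 1 alone, the median log2 fold change was -0.035 for G1 and 0.048 for S phase, and on leaving out a library the S median ran from 0.0072 to 0.040.

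Signs turned for genes whose log2 fold change was close to 0, none of them past the threshold. Ccne2 was at 0.0027 with total-count scaling and at 0.001, 8e-04 and 0.001 with limma at the pseudocounts of 0.1, 1 and 0.01, where Rrm1 was at 0.006, 0.0026, 0.0025 and 0.0026. With Hnf3a replicate 1 alone the values were -0.029 for Ccne1, 0.013 for Ccne2, -0.042 for Cdk2, -0.058 for Cdkn2a, -0.175 for Cdkn2b, -0.0052 for Mcm2, 0.0018 for Cdc6, -0.024 for Ccna2, -0.011 for Ccnb2, -0.0059 for Bub1, -0.040 for Aurka and -0.103 for Birc5. On leaving out a library, the lowest and highest values were -0.029 and 0.030 for Ccne1, -0.049 and 0.047 for Ccne2, -0.029 and 0.029 for Cdk2, -0.025 and 0.115 for Cdkn2b, -0.062 and 0.0025 for E2f1, -0.022 and 0.011 for Rrm1, -0.0063 and 0.027 for Ccna2, -0.0001 and 0.036 for Cdk1, -0.011 and 0.041 for Aurkb and -0.029 and 0.072 for Birc5. For the 40 genes, the alternatives run otherwise left the sign and the side of the threshold in place, except that Ccnd1 and Ccnd2 no longer passed it in the settings counted above.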
